A study of Mus musculus with 6 samples.

Results

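The genes described here mark the epithelial and the mesenchymal state of cells in the presomitic mesoderm, the still unsegmented tissue behind the youngest somite of the mouse embryo. They are the epithelial genes Cdh1 and Epcam, the mesenchymal genes Cdh2, Cdh11 and Vim, and the transcription factor genes Snai1, Snai2, Twist1, Zeb1 and Zeb2. A gene was taken where a probe of the array is annotated to it alone, with the brightest probe used where there were several. This gave 9 of the 10 named genes, out of 13840 genes with such a probe. Twist1 has no such probe and was not analysed here.

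Total RNA came from presomitic mesoderm dissected at embryonic day 10.5. One group were Nrarp knockout embryos, in which LacZ stands in place of the Nrarp coding region in the germ line and therefore in every cell. The other were wild-type littermates, from matings of heterozygous mice. Nrarp encodes a small feedback protein of the Notch pathway. There were 3 one-colour arrays of each genotype, with replicate numbers 1 to 3, from 12 presomitic mesoderms of each genotype. The labels do not tie tissue pieces to arrays, so the spread behind the p-values may be technical.

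Cells of the presomitic mesoderm are loosely packed mesenchyme, and they turn into a closed epithelium when a somite forms. Cadherins are calcium-dependent adhesion proteins, of which E-cadherin (Cdh1) holds epithelial sheets together and N-cadherin (Cdh2) is typical of mesenchyme, somites and neural tissue. Proteins of the Snail and Zeb families bind E-box sequences and repress epithelial genes, Cdh1 above all. Snai1 is also known to be transcribed in waves in the presomitic mesoderm of the mouse, as part of the segmentation clock.

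The promoters of Snai1 and Epcam are shown because Snai1 was the one gene higher in the knockout in every replicate pair and Epcam the epithelial gene that varied most between arrays. The windows run from 250 bases before to 50 bases after the transcription start (RefSeq, GRCm38.p6, both on the plus strand), and Snail and Zeb proteins are known to bind the E-box CAGGTG. It was searched on both strands, where its reverse complement reads CACCTG, and the 2 words cannot overlap each other. Capitals mark the matches in the windows chr2:167537945-167538244 for Snai1 and chr17:87635729-87636028 for Epcam.
Snai1: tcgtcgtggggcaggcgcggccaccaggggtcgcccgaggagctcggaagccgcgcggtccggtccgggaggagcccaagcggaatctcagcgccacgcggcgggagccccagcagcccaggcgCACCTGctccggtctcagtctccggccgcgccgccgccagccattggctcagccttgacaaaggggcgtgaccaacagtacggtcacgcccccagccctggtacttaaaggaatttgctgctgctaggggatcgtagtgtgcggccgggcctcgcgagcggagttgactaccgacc
Epcam: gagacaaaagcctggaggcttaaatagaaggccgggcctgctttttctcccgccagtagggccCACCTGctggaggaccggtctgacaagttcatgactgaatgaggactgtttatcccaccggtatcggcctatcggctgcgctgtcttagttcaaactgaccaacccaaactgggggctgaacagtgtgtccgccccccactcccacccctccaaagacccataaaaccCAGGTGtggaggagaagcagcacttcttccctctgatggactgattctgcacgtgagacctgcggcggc
The Snai1 window held 1 match, which begins 126 bases before the start. The Epcam window held 2, which begin 187 and 19 bases before it. Of 32851 promoter windows in the table, 20.2% held at least 1 match and 2.88% at least 2. Among the named genes 5 had a window, and those of Vim, Zeb2 and Twist1 held 0 matches. A match describes letters only and shows no binding.

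After the scaling done before deposit, the 6 array medians ran from 0.981 to 0.993. The replicate 1 arrays of both genotypes stood apart from the other 4. The 75th percentile divided by the 10th gave 56.9 for the knockout and 42.7 for the wild-type replicate 1 array, whereas the other knockout arrays gave 12.4 and 14.8 and the other wild-type arrays 15.8 and 16.0. Results are therefore also given within each replicate number or without replicate 1. The Nrarp probe averaged 26.7 ± 14.4 in the knockout and 398 ± 70.2 in wild type (SD, n = 3 each), a log2 difference of -4.03. In limma its adjusted p was 0.428 without the replicate block and 0.00042 with it, so even a change of this size missed the threshold in the fit without the block, and a lack of calls there does not show that genes were unchanged. The sources used here do not say whether this probe lies in the replaced part. Most presomitic markers were bright, with Tbx6 at 487 to 848 in the knockout and 416 to 745 in wild type, and 6 of the 9 measured markers lay above the 75th percentile of every array. Fgf8 did so on 5 arrays, and Hes7 and Msgn1 on 2, those of replicate 1. Hes7 read 64.1, 1.63 and 1.19 in the knockout, against 54.2, 1.36 and 2.09 in wild type. Msgn1 read 50.1, 3.18 and 4.3 in the knockout, against 50.2, 3.59 and 2.8 in wild type. A probe's brightness depends on its own sequence, so levels are not read as relative amounts of different transcripts. Sums over marker lists are weighted towards their bright probes.

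Both epithelial genes and most mesenchymal genes gave a clear signal in this tissue. Of the 9 genes, 7 lay above the 75th percentile on all 6 arrays (4.90 to 9.71), as did 6700 of all 33012 probes. Zeb2 did so on 3 arrays. Snai2 did so on 0, and it lay above the array median on 5.

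No member passed the test between genotypes. In limma, with Benjamini-Hochberg adjustment over all 33012 probes, 0 of the 9 genes had an adjusted p under 0.05, and the adjusted p was 1.00 for each. Over all probes this fit called 0, which is 0%, and 217 probes (0.657%) had an unadjusted p under 0.05, of which 0 were members. With the replicate number as a block the fit called 2 probes, which is 0.00606%, neither of them a member, and each member had an adjusted p of 0.999. The groups overlapped for all 9 genes, while over all probes they did not overlap for 3.78%. The exact permutation test of 3 against 3 arrays cannot go below 0.1, and the smallest value among the members was 0.3 (two-sided, for Cdh1). The log2 differences of the members ran from -0.55 to 0.69 with a median of -0.04, beside a median of -0.01 over all probes.

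**Figure D1:**
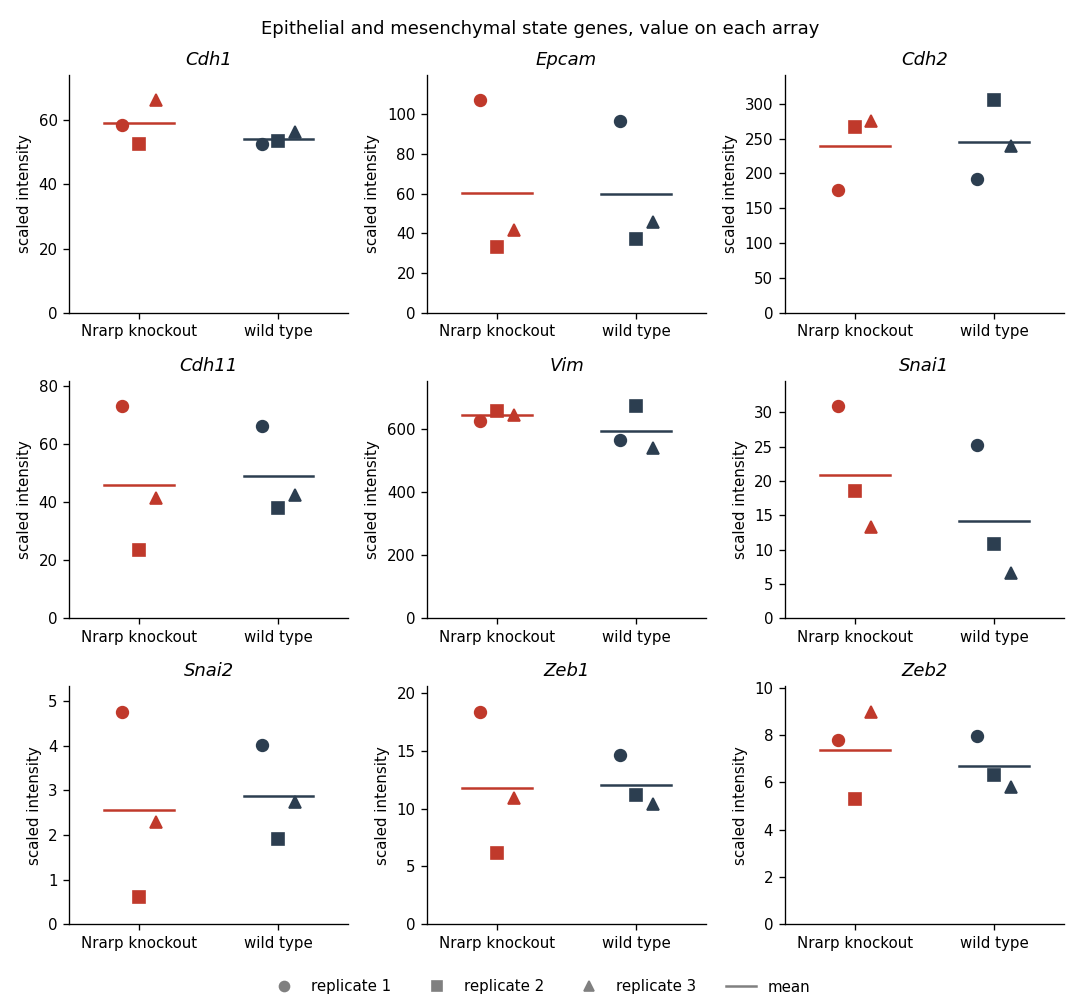
Scaled intensity of the 9 measured genes on each array, with Nrarp knockout left of wild type, linear axes from 0, symbols for replicate numbers and bars for group means. The groups overlap in every panel, and for Epcam, Cdh11, Snai1, Snai2 and Zeb1 the replicate 1 arrays are the highest of their genotype.

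Cdh1 was the steadiest gene of the set together with Vim. It read 58.6, 52.7 and 66.2 on the knockout arrays, against 52.5, 53.4 and 56.2 on the wild-type arrays. The mean was 59.2 ± 6.75 in the knockout and 54.0 ± 1.95 in wild type (SD, n = 3 each). Knockout replicates 1 and 3 were above every wild-type array, and knockout replicate 2 lay among them. The fold was 1.09, with a 95% interval from 0.737 to 1.61 in limma. A change of Cdh1 to below 0.737 or above 1.61 times the wild-type level lies outside that interval, and smaller ones do not.

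Epcam encodes a homophilic adhesion protein of epithelial cells. It read 107, 32.9 and 41.5 in the knockout, against 96.6, 37.2 and 45.7 in wild type. In both genotypes the replicate 1 array was more than 2 times as high as either of the others, and the genotypes overlapped fully. The fold was 0.961 (95% interval 0.406 to 2.28). Within replicates 2 and 3 alone it was 0.897, with an adjusted p of 0.995 in limma. Presomitic mesoderm was dissected rather than sorted, so fewer cells of a type and less RNA per cell cannot be told apart for this or any other gene here.

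Among the mesenchymal genes Vim, which encodes the intermediate filament protein vimentin, was as steady as Cdh1. It read 624, 656 and 644 in the knockout, against 565, 671 and 537 in wild type. The highest and the lowest value both came from wild type, and the 3 knockout arrays lay between them. The fold was 1.09 (95% interval 0.81 to 1.46), the narrowest interval of the set.

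Cdh2 was measured by 2 probes that did not behave alike. The brighter one (734989), used for the gene, read 176, 267 and 275 in the knockout, against 192, 305 and 240 in wild type. Replicate 1 was the lowest array of both genotypes. Its fold was 0.972 (95% interval 0.619 to 1.53). The dimmer probe (696441) read 57.0, 3.11 and 4.5 in the knockout, against 42.5, 4.89 and 3.54 in wild type. Here replicate 1 was the highest of both genotypes, by a factor of 15.2 over the others in the knockout and 10.2 in wild type, on the log2 mean. The genotypes overlapped on both probes. Between replicate 1 and the other arrays the 2 probes thus went opposite ways, by 4.20 on the log2 scale. Of 511 genes with exactly 2 probes, 6 (1.17%) had probes that differed by as much or more, Cdh2 among them.

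Cdh11, a cadherin of loose mesenchyme, read 73.1, 23.5 and 41.3 in the knockout, against 66.4, 38.0 and 42.5 in wild type. Replicate 1 was again the highest array of each genotype, and knockout replicate 2 was the lowest of all 6. The fold was 0.871 (95% interval 0.42 to 1.81).

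Snai1, the zinc finger repressor of epithelial genes, had the largest positive difference of the set. It read 30.9, 18.5 and 13.3 in the knockout, against 25.3, 10.9 and 6.54 in wild type. Within each replicate number the knockout array was the higher one, and knockout replicates 2 and 3 both lay above wild-type replicates 2 and 3. Wild-type replicate 1 still lay above knockout replicates 2 and 3, so the groups overlapped. The log2 difference was 0.69 (SE 0.56), a fold of 1.61 with a 95% interval from 0.657 to 3.97. The log2 differences within replicates 1, 2 and 3 were 0.29, 0.76 and 1.02, and without replicate 1 the fold was 1.85 (limma, adjusted p = 0.995).

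Snai1 was the one member higher in the knockout in all 3 replicate pairs, and 0 were lower in all 3. Over all probes 13.2% were higher in all 3 pairs and 10.5% lower, so 1 gene in 9 is near that background. With the replicate block the 95% interval of the Snai1 fold was 1.22 to 2.14, with an unadjusted p of 0.00394 in limma that did not hold after adjustment (0.999). In that fit 1238 probes (3.75%) had an unadjusted p under 0.05, and 48 (0.145%) had one at or below that of Snai1. Snai1 was the one member under 0.05.

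Snai2, the related repressor also known as Slug, gave a dim signal. It read 4.76, 0.610 and 2.30 in the knockout, against 4.01, 1.90 and 2.73 in wild type. Knockout replicate 1 was the highest of the 6 arrays, and knockout replicate 2 the lowest, below its array's median. The log2 difference was -0.55 (SE 0.76), with a 95% interval of the fold from 0.202 to 2.32. Its sign rests on knockout replicate 2, without which it was 0.27. Within the replicates it was 0.25, -1.64 and -0.25. A fold of 2 in either direction lies inside this interval.

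The Zeb genes encode zinc finger and homeodomain repressors. Zeb1 read 18.4, 6.21 and 10.9 in the knockout, against 14.7, 11.2 and 10.4 in wild type. Knockout replicates 1 and 2 were the highest and the lowest of the 6 arrays. Zeb2 read 7.79, 5.29 and 8.98 in the knockout, against 7.94, 6.30 and 5.81 in wild type. Its highest and lowest values were also knockout arrays, but of replicates 3 and 2. The fold was 0.901 for Zeb1 (95% interval 0.436 to 1.86). For Zeb2 it was 1.08 (95% interval 0.603 to 1.95).

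**Figure D2:**
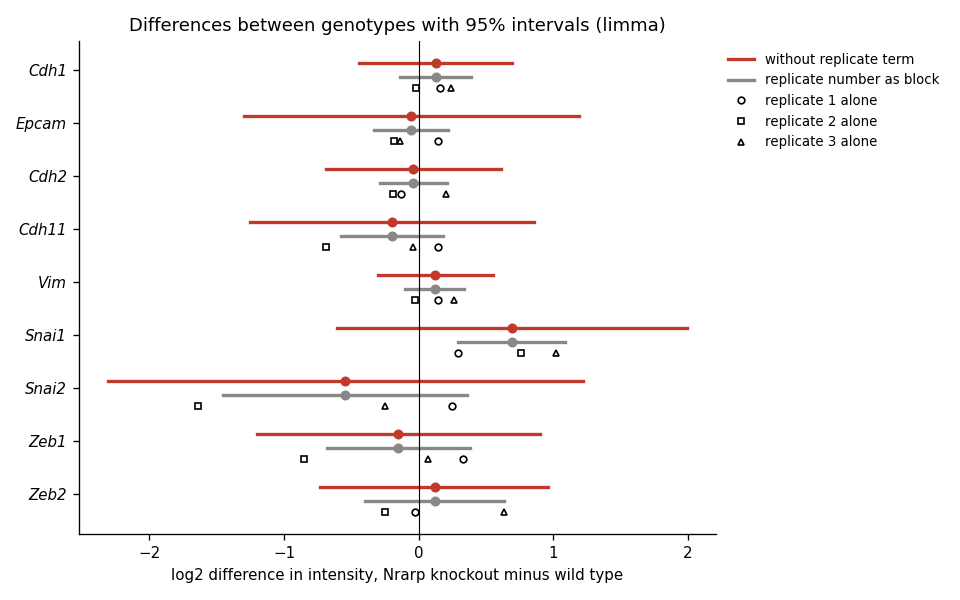
Log2 difference in intensity, Nrarp knockout minus wild type, for each gene, with 95% intervals from limma without a replicate term and with the replicate number as a block, and open symbols for each replicate number alone. All intervals of the fit without the replicate term include 0, and the blocked interval of Snai1 runs from 0.29 to 1.09.

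The balance of the 2 states was taken within each array as the mean log2 of Cdh1 and Epcam minus the mean log2 of the 7 measured mesenchymal genes, set relative to its mean over the 6 arrays. It was 0.06, 0.11 and -0.11 in the knockout, against 0.05, -0.21 and 0.11 in wild type. The means were 0.02 ± 0.11 in the knockout and -0.02 ± 0.17 in wild type (SD, n = 3 each), a difference of 0.04 that is smaller than the spread between arrays of either genotype. Both terms of the balance were highest on the replicate 1 arrays. Replicate 1 had an epithelial mean of 0.52 in the knockout and 0.37 in wild type, and a mesenchymal mean of 0.46 in the knockout and 0.32 in wild type. The 2 means therefore largely cancelled in the balance. The epithelial rise on replicate 1 was that of Epcam alone. Cdh1 there differed from replicates 2 and 3 by -0.01 in the knockout and -0.06 in wild type, on the log2 scale. In the mesenchymal mean, Cdh2 and Vim did not rise.

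Single ratios were less even than the balance. Cdh1 over Cdh2, the pair of the cadherin switch, gave 0.49, -0.26 and 0.02 in the knockout, against 0.20, -0.44 and -0.02 in wild type. The knockout was higher within each replicate number, by 0.28, 0.17 and 0.04, but replicate number moved the ratio more than genotype did. This order depends on how numbers 2 and 3 are matched, which these data do not settle. Knockout replicate 2 (-0.26) lay below wild-type replicate 3 (-0.02). With the dimmer Cdh2 probe the same ratio gave -2.58, 1.46 and 1.25 in the knockout, against -2.32, 0.82 and 1.36 in wild type. Its differences within the replicates were -0.26, 0.64 and -0.11, so the sign over the replicates was not held with that probe.

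Against Snai1 both epithelial genes were relatively lower in the knockout in each replicate number, as the Snai1 values above imply. Cdh1 over Snai1 was -0.95, -0.36 and 0.45 in the knockout, against -0.81, 0.43 and 1.24 in wild type. For this ratio the order depends on how numbers 2 and 3 are matched, since knockout replicate 3 lay above wild-type replicate 2. Epcam over Snai1 was -0.01, -0.96 and -0.15 in the knockout, against 0.14, -0.03 and 1.01 in wild type. The groups overlapped in both ratios, in the second by a single pair of arrays, knockout replicate 1 and wild-type replicate 2. These ratios are descriptions and were not tested.

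**Figure D3:**
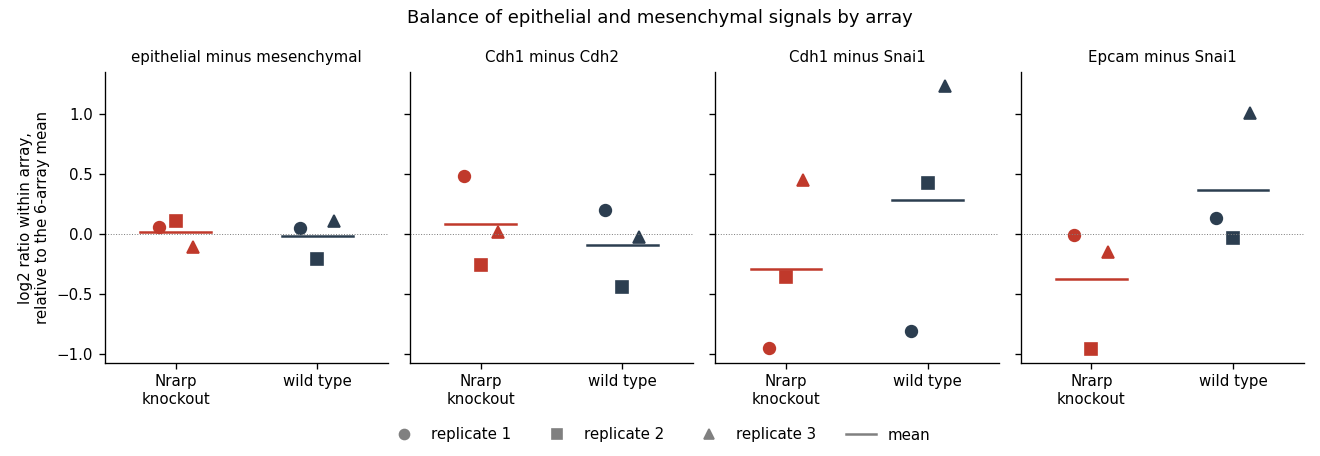
Log2 ratio within each array relative to its mean over the 6 arrays, for the balance of epithelial and mesenchymal genes and for 3 single ratios, with Nrarp knockout left of wild type, symbols for replicate numbers and bars for means. The balance lies between -0.21 and 0.11 on every array, whereas Cdh1 over Snai1 spans -0.95 to 1.24.

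The set split by how its genes followed the replicate number. On replicate 1, Epcam was higher than on replicates 2 and 3 by 1.53 on the log2 scale in the knockout and 1.23 in wild type. Snai1 was higher by 0.98 in the knockout and 1.58 in wild type. Snai2, Cdh11, Zeb1 and Zeb2 were also higher in both genotypes. Cdh1 and Vim differed by at most 0.09 in size, and Cdh2 was lower by 0.62 in the knockout and 0.49 in wild type. Over all probes 14.6% were higher on replicate 1 by more than 1 in both genotypes, and 13.4% were lower by more than 1. Among probes above the 75th percentile on all 6 arrays, as most members were, these shares were 22.1% and 4.42%. Epcam was the one member past 1 in both. The labels give no date, litter or batch for the replicate numbers.

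**Figure D4:**
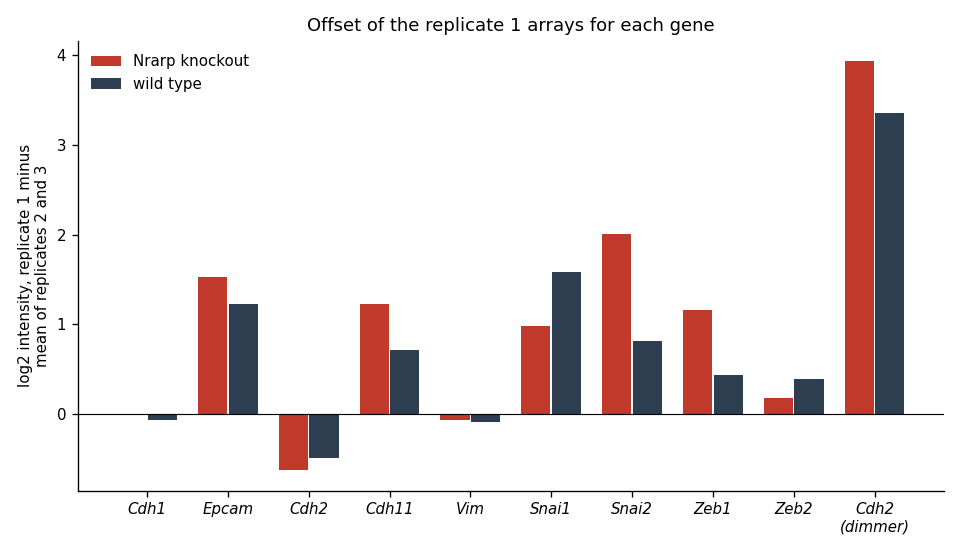
Log2 intensity of the replicate 1 array minus the mean of replicates 2 and 3, bars from 0, with Nrarp knockout left of wild type for each gene and for the dimmer Cdh2 probe. The dimmer Cdh2 probe reaches 3.93 in the knockout and 3.35 in wild type, while Cdh1 and Vim stay near 0.

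Markers of epithelial tissues next to the presomitic mesoderm were mixed in how they followed the replicate number. The 16 measured markers of surface ectoderm and gut endoderm, of 16 listed, summed to 163, 92.6 and 83.0 in the knockout, against 145, 97.4 and 102 in wild type. Wnt6, a ligand gene of surface ectoderm whose probe gave the most signal of the list, read 93.3, 44.6 and 40.7 in the knockout, against 83.9, 46.1 and 54.1 in wild type. Replicate 1 was the highest array of each genotype for Wnt6 and for the sum, which Wnt6 carries. Of the 16 markers, 4 were higher on replicate 1 by more than 1 on the log2 scale in both genotypes (25%, beside 14.6% of all probes), 3 were lower by more than 1, and the median shift was 0.34 in the knockout and 0.24 in wild type. The basal keratin gene Krt5 read 14.4, 18.7 and 12.7 in the knockout, against 11.3, 11.5 and 12.5 in wild type. Its knockout arrays all lay above its wild-type arrays, at a log2 difference of 0.36 that did not pass, and replicate 1 was not the highest in either genotype. The gut endoderm gene Foxa1 was below the array medians, at 0.332 to 0.596 in the knockout and 0.409 to 0.819 in wild type. The surface ectoderm gene Trp63 was near or below them, at 0.405 to 1.19 in the knockout and 0.453 to 0.492 in wild type. Foxa2 of the same list was brighter, at 4.54, 6.40 and 7.56 in the knockout, against 6.48, 15.1 and 7.79 in wild type. It lay above the median on all 6 arrays and above the 75th percentile on 4. Of the 16 markers, 3 lay above the 75th percentile on all 6 arrays, Krt14 among them, and 1 below the median on all 6. The groups did not overlap for 2, Krt5 and Krt14, beside 3.78% of all probes. The part of such tissue in the Epcam values was not tested.

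Other tissues that use Cdh2, Snai2 or Zeb genes were measured too. The 9 measured neural tube markers of 10 listed summed to 21.9 to 33.1 in the knockout and 24.7 to 37.6 in wild type. Among them the progenitor gene Sox2 was bright and Pax6 below the median on all 6 arrays. The 5 measured neural crest markers of 8 listed summed to 16.0 to 18.9 in the knockout and 13.8 to 23.8 in wild type, and 0 of them lay above the 75th percentile on all arrays. The 5 of 6 notochord markers summed to 54.5 to 136 in the knockout and 70.0 to 120 in wild type, carried by Cdx2, at 24.8 to 104 in the knockout and 36 to 89.1 in wild type. Cdx2 is also a gene of the tailbud and stands among the epithelial state regulators below. The 9 of 10 lateral plate and limb bud markers summed to 25.3 to 28.8 in the knockout and 23 to 27.1 in wild type. The sums for 11 of 12 endothelial and blood markers were 3550 to 6770 in the knockout and 3970 to 6640 in wild type, carried by the embryonic globin genes Hbb-bh1 and Hba-x. The 14 of 17 epithelial somite genes summed to 1070 to 1090 in the knockout and 882 to 1030 in wild type. The sum is carried by a few bright probes, and 7 of the 14 genes were above 0 in log2 difference and 7 were below it. Their median was -0.01, and the groups did not overlap for 1 of the 14 genes, beside 3.78% of all probes. Its probes with the most signal were those of the homeobox gene Meox1, at 397 to 450 in the knockout and 284 to 439 in wild type, and the forkhead gene Foxc2, at 318 to 365 in the knockout and 285 to 356 in wild type. The part of these tissues in the members' values was not tested.

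In the same marker lists the genes with the smallest p-values without the block did not pass either. In the presomitic list they were the Wnt potentiator gene Rspo3 and Cyp26a1, which encodes an enzyme that degrades retinoic acid, with log2 differences of -0.29 and -0.24. In the epithelial somite list they were the T-box gene Tbx18 (-1.02) and Mesp2 (0.56), which acts at the forming somite border. Among the epithelial tissues they were the apolipoprotein gene Apoa1 (-1.72) and the keratin gene Krt15 (-0.77).

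The neural tube genes Sox1 and Neurog1 differed by 0.65 and -0.49, and the neural crest genes Tfap2b and Ednrb by 0.39 and -0.35. The red cell genes Alas2 and Klf1 differed by -0.25 and -0.45, the notochord genes Chrd and Shh by -0.19 and 0.23, and the limb bud genes Lhx9 and Pitx1 by -1.56 and 0.67. Rspo3, Tbx18 and Ednrb, each the 1 such gene of its list, were lower on every knockout array than on any wild-type array. Over all probes the groups did not overlap for 3.78%, in either direction. Apoa1, Krt15, Lhx9, Tbx18, Sox1, Shh and Ednrb were dim, each below the array median on at least 1 array.

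Other probes with the most signal in these lists overlapped between genotypes. The Notch ligand gene Dll3 lay at 471 to 541 in the knockout and 494 to 605 in wild type. Sox2 lay at 7.35 to 23.4 in the knockout and 10.6 to 28 in wild type, and the motor neuron and crest gene Isl1 at 8.97 to 14 in the knockout and 8.68 to 18.8 in wild type. The limb gene Pitx1 lay at 7.64 to 17 in the knockout and 5.71 to 9.46 in wild type, and the ligand gene Bmp4 at 4.45 to 13.1 in the knockout and 6.62 to 12.1 in wild type.

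Genes that work with the members gave no calls. The 14 lists of pathway and marker genes hold 201 genes, of which 165 were measured. In limma, 0 of these passed over all probes either without or with the replicate block. An unadjusted p under 0.05 was reached by 0 without the block and by 10 with it, and over all probes the shares were 0.657% and 3.75%. The 10 were Aldh1a2, Pitx1, Mesp2, Lhx9, Perp, Sox2, Tbx6, Mmp14, Foxa2 and Tbx18. Aldh1a2, of the epithelial somite list, had the smallest (limma with the block, unadjusted p = 0.000357, adjusted p = 0.999), below that of Snai1. Its log2 difference was 1.23, and the groups overlapped. In what follows, the smallest p-values of a list are those without the block.

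Of 13 measured further cadherins, 7 differences lay above 0 and 6 below it, with a median of 0.12. P-cadherin (Cdh3), a classical cadherin of epithelia, was the only one above the 75th percentile on all 6 arrays. It read 193, 263 and 193 in the knockout, against 205, 215 and 260 in wild type, and the groups overlapped. Of the 13, 6 were below the array median on every array. The smallest p-values belonged to the dim genes Cdh4 (-0.67) and Cdh17 (0.51), each with overlapping groups.

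The catenins link cadherins to actin. Of 13 measured genes of the catenin and adherens junction list, 7 differences lay above 0 and 6 below it, with a median of 0.05. Ctnnb1 (beta-catenin), named for its role, read 59.6, 13.9 and 16.3 in the knockout, against 50, 22.5 and 19.4 in wild type. Ctnna1 (alpha-catenin), named likewise, read 28.0, 1.01 and 0.737 in the knockout, against 21.0, 3.12 and 1.92 in wild type. For both, replicate 1 was far above the other arrays of its genotype, and within replicates 2 and 3 the knockout arrays were the lower ones. Their log2 differences of -0.23 and -0.86 did not pass. The smallest p-values were those of the dim genes Arvcf (0.82), a catenin of the p120 family, and Ctnna3 (-0.69).

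Of 20 measured epithelial junction and keratin genes, 7 differences lay above 0 and 13 below it, with a median of -0.12. The tight junction genes Marveld3 (0.50) and Ocln (-0.58) had the smallest p-values. Cldn7, whose protein binds EpCAM and which is named for that role, read 35.1, 10 and 9.57 in the knockout, against 34.4, 11 and 13.4 in wild type. As for Epcam, replicate 1 was the highest array of each genotype. Krt8, a keratin of simple epithelia, read 87.2, 89.2 and 80.7 in the knockout, against 96.6, 89.0 and 71.8 in wild type, with no such order.

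Of 11 measured epithelial state regulators, 3 differences lay above 0 and 8 below it, with a median of -0.18. Esrp1, a splicing factor of epithelial cells named for its role, read 55.8, 90.3 and 88.3 in the knockout, against 54.8, 87.0 and 80.6 in wild type. Replicate 1 was here the lowest of each genotype, the opposite order to Epcam. Grhl2, a transcription factor that activates Cdh1, lay near or below the median at 0.210 to 0.988 in the knockout and 0.270 to 0.850 in wild type. The smallest p-values were those of Esrp2 (-0.49), a relative of Esrp1, and of Ovol1 (-0.39), a zinc finger repressor, both dim.

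Of 18 measured regulators of the mesenchymal transition, 11 differences lay above 0 and 7 below it, with a median of 0.09. Snai3, the remaining member of the Snail family, had the smallest p-value with a log2 difference of 0.57. It read 1.27, 1.93 and 1.14 in the knockout, against 0.737, 1.18 and 0.972 in wild type, close to the array medians. The knockout was higher in all 3 replicates, and the groups overlapped by 1 pair of arrays, knockout replicate 3 and wild-type replicate 2. The order within the replicates therefore depends on how numbers 2 and 3 are matched. Twist2, the relative of the unmeasured Twist1, read 35.0, 45.7 and 43.4 in the knockout, against 33.1, 43.8 and 47.0 in wild type. Foxc1, a forkhead gene of paraxial mesoderm, differed by 0.20.

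Of 20 measured genes of mesenchymal matrix and cytoskeleton, 7 differences lay above 0 and 13 below it, with a median of -0.09. Fibronectin (Fn1), the matrix around the somites, read 489, 283 and 332 in the knockout, against 487, 300 and 336 in wild type, with a log2 difference of -0.03. S100a4, a calcium-binding protein of fibroblasts, had the smallest p-value. It read 1.41, 1.40 and 0.953 in the knockout, against 1.96, 1.56 and 3.46 in wild type, without overlap, at a log2 difference of -0.83 that did not pass (limma, adjusted p = 1.00). It was the 1 gene of the 20 without overlap, beside 3.78% of all probes. Acta2, smooth muscle actin, was dim and differed by 0.83.

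**Figure D5:**
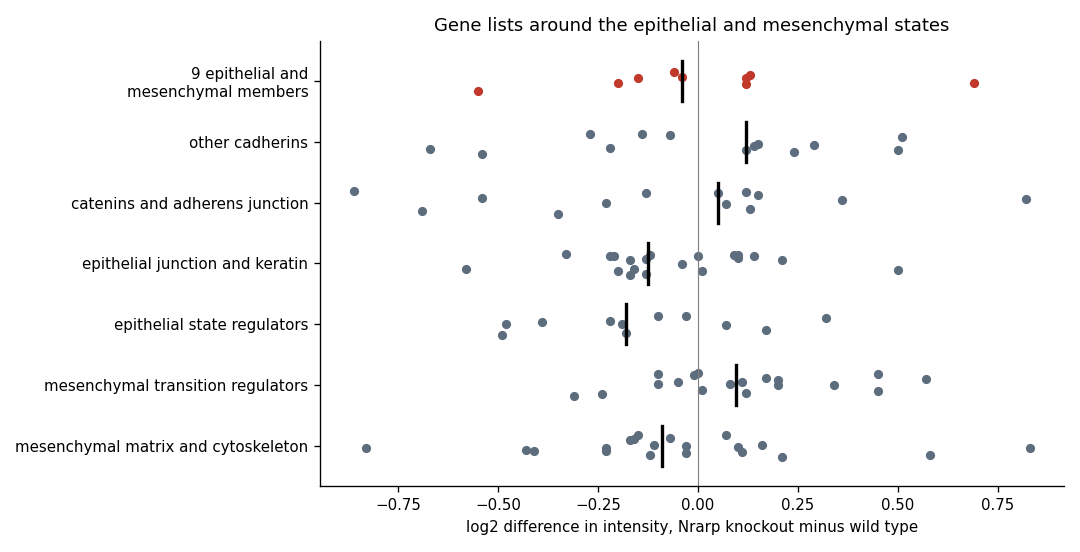
Log2 difference in intensity, Nrarp knockout minus wild type, one point per gene, for the 9 members and 6 lists of related genes, with black bars for list medians and points spread vertically only for legibility. List medians lie between -0.18 and 0.12, and 0 of the genes shown passed over all probes.

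The genes most alike in pattern to the members were ranked by Pearson's r over the 6 arrays, among 8641 other genes brighter than the median probe. For the mean of Cdh1 and Epcam they were Osbpl2, Itpa, Psmd5, B4gat1 and Rpl5, with r from 0.998 to 0.999. A value above 0.9 was reached by 37.1% of these genes. For Snai1 they were Fam234a, Nos3, Ier2, Esm1 and Tnfaip1, with r from 0.976 to 0.995, and 2.14% of genes were above 0.9. The endothelial nitric oxide synthase gene Nos3 read 4.39, 2.08 and 1.03 in the knockout, against 3.18, 1.06 and 0.459 in wild type. The values are descriptions over 6 arrays that fall into 2 clusters by replicate number.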

How the data were processed

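Digoxigenin-labelled cRNA was made from total RNA and read on Applied Biosystems arrays with 1 colour, per the labels' protocols. The labels name a human array, but the samples and the probe annotation are of mouse. The deposited values are intensities on a linear scale, which the authors had scaled to medians just under 1. Software, background handling and filters are not stated in the labels. The number of arrays limits the precision. Of 33012 probes, 14411 were annotated to 1 gene, 247 to several and 18354 are unnamed here.

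Intensities were converted to log2 with no offset or filter and tested two-sided with limma 3.58.1 under R 4.3.3 (a linear model of genotype and empirical Bayes with intensity trend, Benjamini-Hochberg over all probes, threshold 0.05). Intervals of 95% come from that fit unless the block is named. Tables and figures used Python 3.11.15. The fits were tested on simulated data, drawn with the spread of the fit with the block, which takes the pairing by number as given. Deviations from the group means correlated by 0.757, 0.442 and 0.374 between arrays of the same number, which was taken as pairing by number, and across numbers 2 and 3 by 0.419 and 0.397. The pairing therefore rests on replicate 1 and on these data, not on the labels.

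The members and lists were chosen with earlier results of these data known. Named were all members, in each list the 2 genes with the smallest p without the block unless a gene passed, the 2 brightest of each marker list, and the 5 genes most alike in pattern. Also named, after their values were seen, were the 10 listed genes with an unadjusted p under 0.05 with the block. Cdh3, Ctnnb1, Ctnna1, Cldn7, Krt8, Esrp1, Grhl2, Twist2, Fn1, Pax6, Foxa1 and Trp63 were named for their role, after their values were seen. Hes7, Msgn1, Fgf8, Foxa2 and Krt14 were named, likewise after their values were seen, to show the range within their lists. Alternatives were the block, quantile normalization, centring on 75th percentiles, an offset of 1, a filter on dim probes, no intensity trend, the mean of a gene's probes and left-out arrays.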

Additional observations from a re-analysis of the deposited data

How the results depend on the processing

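No member passed under any of the 19 alternatives, and neither did a gene of the related lists. The count over all probes was 0 without the block, 2 with the replicate block and 2 for replicates 2 and 3 only. Alternatives added after seeing the data gave 2 with the replicate block after quantile normalization, 0 with the block and no intensity trend (unadjusted p under 0.05 for 1492 probes), and 2, 2 and 7 with the block without replicates 1, 2 and 3. The balance of epithelial and mesenchymal genes ranged from -0.06 to 0.10 with single arrays left out and stayed within the spread between arrays under the 11 alternatives run for it. Snai1, Cdh1 and Vim kept a positive log2 difference throughout, with Snai1 at 0.24 to 1.22 when single arrays were left out.

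The other 6 members changed sign, and the cause was not tested. With single arrays left out they ranged from -1.21 to 0.27 (Snai2), -0.54 to 0.25 (Zeb1), -0.05 to 0.34 (Zeb2), -0.21 to 0.17 (Cdh2), -0.61 to 0.21 (Cdh11) and -0.57 to 0.35 (Epcam). The highest log2 difference of Epcam came with wild-type replicate 1 left out. Those of Snai2, Zeb1 and Cdh11 came with knockout replicate 2 left out. Single reversals were 0.04 for Cdh11 without wild-type replicate 1, 0.28 and 0.11 for Epcam without knockout replicates 2 and 3, and 0.13 for Cdh2 without wild-type replicate 2. Cdh2 was at 0.01 with centring on 75th percentiles and at 0.00092 for replicates 2 and 3 only, with and without the block. With the block and without replicate 2 the values were 0.0001 for Snai2, 0.20 for Zeb1, 0.03 for Cdh2, 0.05 for Cdh11, 0.0033 for Epcam and -0.08 for Shh, and without replicate 3 -0.14 for Zeb2. Cdh4 was at 0.08 for replicates 2 and 3 only, with and without the block, and Klf1 ranged from -0.74 to 0.08 with single arrays left out. The replicate block changed the call of no member and of no listed gene. Of the list medians under alternatives, 224 stayed within the spread between replicate pairs and 42 did not. The median difference of all probes was -0.01, and 0.05 after centring on 75th percentiles. With 3 arrays a group, a 2-fold increase of Snai1 and 2-fold changes of Snai2 and Epcam lie inside the intervals, and dim probes such as Snai2 are limited further by an unknown background.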
